A study of Mus musculus with 10 samples.

Results

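The 33 genes described here encode cadherins, catenins and plakophilins, the proteins that build adherens junctions and desmosomes. They were taken as a named list and are 33 of the 20665 autosomal coding genes of the mouse. The list holds 5 type I cadherins (Cdh1, Cdh2, Cdh3, Cdh4 and Cdh15), 13 type II cadherins, 4 other cadherins that are not classical in structure (Cdh13, Cdh16, Cdh17 and Cdh26), 4 alpha catenins and their relatives, 2 delta catenins, and plakoglobin with 4 plakophilins. Each open region or Sox4 window was given to its nearest coding gene within 100 kb, and 306 of 67098 open regions assigned in this way went to a member. Every member had at least 1 open region, and 27 of the 33 had one in every ATAC library.

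Classical cadherins are calcium-dependent adhesion receptors whose outer repeats bind cadherins on the neighbouring cell. Inside the cell, beta catenin or plakoglobin binds the cadherin tail and recruits an alpha catenin, which links the junction to actin. Delta catenins bind closer to the membrane and control how long a cadherin stays at the surface, while plakophilins serve desmosomes, which are anchored to keratin filaments. Different cell types carry different cadherins, and E-cadherin and N-cadherin are known to be distributed differently over the developing cochlear epithelium. Beta catenin is not among the members and was counted with the junction partners.

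All samples came from mouse cochlear ducts at stage E13.5 of embryonic development, with the epithelial layer freed by enzyme digestion. ATAC-seq, which marks DNA that a transposase can reach, was made from wildtype embryos (3 libraries) and from embryos labelled SoxC double knockout (2 libraries). The protocol describes whole epithelia and the titles whole organ. The labels of these libraries name neither the deleted genes nor the driver of the deletion. A Pax2cre SoxC fl/fl strain is named only for a single-cell library. Sox4 CUT&RUN, which releases DNA bound by an antibody target, was made with a guinea pig anti-Sox4 antibody from FACS-sorted GFP positive progenitors of wildtype p27kip1-GFP mice (3 replicates). The sort limits these libraries to cells with that reporter, and no library of a control antibody was analysed. The labels do not say that libraries came from separate animals, so p-values measure only the spread between libraries, which may be technical.

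The deposited ATAC lists held 166874 to 196536 peaks in wildtype against 266873 and 299829 in knockout, and the Sox4 lists 39325 to 163020. Ranks were therefore compared instead of heights, with rank 1 the peak of the highest -log10 p in its library. The peak at rank 50000 had a -log10 p of 8.75 to 19.0 in wildtype and of 50.5 and 104 in knockout. A weaker rank in knockout is thus a weaker place among the peaks of that library, not a lower -log10 p, and genotype cannot be told apart from the depth and calling settings of the lists. The lists give no expression, so they do not check the knockout labels. Of the marker lists, the 7 epithelial genes had 31 to 41 regions per wildtype and 40 and 43 per knockout library, and all 7 had a region in every library. The 8 otic duct genes had 51 to 64 against 58 and 49, and all 8 had a region in every library.

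The promoters below are a selection, and others in regions with weaker ranks in both knockout libraries, such as that of Cdh7, are not shown. Each promoter below gives the 250 bases before a RefSeq start (GRCm38.p6), 5′ to 3′ on the gene's strand. Capitals mark matches, on either strand, to the SOX core forms ACAAAG and ACAATG, to CAGGTG (the E-box bound by Snail and Zeb repressors) and to the GC box GGGCGG. Of 32851 promoters in the RefSeq table, 16.5% held ACAAAG, 10.7% ACAATG, 17.2% CAGGTG and 32.7% GGGCGG in this window. The first 5 lie in open regions with weaker ranks in both knockout libraries, Cdh15 in a region of the knockout-only class, and Jup at a Sox4 site.
Ctnna2, chr6:77979668-77979917, minus strand: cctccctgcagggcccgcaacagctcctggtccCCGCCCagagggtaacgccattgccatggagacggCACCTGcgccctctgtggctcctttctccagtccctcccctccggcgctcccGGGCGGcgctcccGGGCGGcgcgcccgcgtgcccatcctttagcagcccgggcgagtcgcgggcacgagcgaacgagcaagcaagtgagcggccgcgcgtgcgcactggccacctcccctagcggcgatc
Cdh18, chr15:23036213-23036462, plus strand: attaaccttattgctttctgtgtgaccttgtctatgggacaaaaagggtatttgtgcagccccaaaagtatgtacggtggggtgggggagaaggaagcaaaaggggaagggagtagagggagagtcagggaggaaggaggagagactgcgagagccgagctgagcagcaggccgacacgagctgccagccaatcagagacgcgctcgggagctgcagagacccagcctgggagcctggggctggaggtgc
Cdh12, chr15:21111202-21111451, plus strand: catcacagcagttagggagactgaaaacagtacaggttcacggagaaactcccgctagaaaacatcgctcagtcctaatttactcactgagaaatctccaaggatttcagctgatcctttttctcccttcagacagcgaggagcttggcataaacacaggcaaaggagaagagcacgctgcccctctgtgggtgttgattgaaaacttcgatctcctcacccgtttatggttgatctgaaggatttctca
Cdh6, chr15:13173676-13173925, minus strand: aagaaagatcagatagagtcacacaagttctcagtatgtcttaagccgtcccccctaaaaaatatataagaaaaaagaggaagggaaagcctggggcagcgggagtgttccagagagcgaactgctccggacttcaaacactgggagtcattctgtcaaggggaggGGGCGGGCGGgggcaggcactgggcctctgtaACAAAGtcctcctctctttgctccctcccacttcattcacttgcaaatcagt
Cdh8, chr8:99416472-99416721, minus strand: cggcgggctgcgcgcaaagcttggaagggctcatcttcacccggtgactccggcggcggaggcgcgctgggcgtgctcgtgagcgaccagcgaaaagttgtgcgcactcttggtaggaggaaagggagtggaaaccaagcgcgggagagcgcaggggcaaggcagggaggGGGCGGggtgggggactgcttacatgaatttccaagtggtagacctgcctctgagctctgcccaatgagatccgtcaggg
Cdh15, chr8:122848124-122848373, plus strand: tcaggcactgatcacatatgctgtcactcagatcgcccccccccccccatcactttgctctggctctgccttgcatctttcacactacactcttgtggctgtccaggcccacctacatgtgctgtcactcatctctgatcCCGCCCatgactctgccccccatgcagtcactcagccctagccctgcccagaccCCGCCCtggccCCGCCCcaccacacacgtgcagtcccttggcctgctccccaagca
Jup, chr11:100397791-100398040, minus strand: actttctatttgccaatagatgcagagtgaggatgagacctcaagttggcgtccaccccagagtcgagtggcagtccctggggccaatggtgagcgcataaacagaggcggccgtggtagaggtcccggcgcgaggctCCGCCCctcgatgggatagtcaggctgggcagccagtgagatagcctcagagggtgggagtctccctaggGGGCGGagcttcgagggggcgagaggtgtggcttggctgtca

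The Cdh6 promoter held 1 ACAAAG, 52 bases before the start, and overlapping GC boxes 84 and 80 bases before it. No other promoter shown held either SOX core form. Ctnna2 held 3 GC boxes and 1 CAGGTG, 182 bases before the start, and had 30 CpG against a median of 6 over all promoters. Cdh15 and Jup held 3 and 2 GC boxes, with 5 and 13 CpG. The Cdh12 and Cdh18 promoters held no match to any of the 4 motifs. These starts lie deep inside the intervals that the gene table gives for Cdh12 and Cdh18. A match is a description of letters and no match draws no conclusion about any factor. Of the 33 members, 19 had a promoter in the table, 25 promoters in all.

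Open regions of cadherin and catenin genes were placed lower in the knockout lists more often than those of coding genes in general. A region was called wildtype-only when it was among the 50000 strongest autosomal peaks of all 3 wildtype libraries and of neither knockout library. Of the 306 member regions 40 were wildtype-only, or 13.1% (exact binomial 95% interval 9.51% to 17.4%, for counting error only), against 5.80% of all assigned regions. Here and below, such intervals treat regions of the same gene as independent and may be too narrow. Ctnna2 alone held 11 of the 40. The reverse class, knockout-only, held 14 member regions, or 4.58% (2.52% to 7.56%), against 8.48%. By number of regions, 12 members (36.4%) had fewer in both knockout libraries than in any wildtype library, against 9.13% of the coding genes with a region. The 12 were Cdh2, Cdh6, Cdh7, Cdh8, Cdh11, Cdh12, Cdh17, Cdh18, Ctnna2, Ctnna3, Ctnnd2 and Pkp4. Cdh15, Cdh22 and Ctnna1 had more in both knockout libraries, where 16.7% of genes did. These shares of genes were not matched for length, and the median member was 129 kb long against 17.5 kb for coding genes. Other coding genes of 500 kb or more together also had fewer regions in knockout, 2167 and 2268 against 2638, 2947 and 3178 in wildtype.

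The ranks of single regions were compared next. For regions with a peak among the 100000 strongest of all 5 libraries, log2 ranks were compared with limma over all such regions, with Benjamini-Hochberg adjustment. Of 177 member regions fitted, 50 in 18 genes were weaker in knockout at an adjusted p under 0.05, or 28.2% (21.7% to 35.5%), against 13.6% of all regions. Only 8, in 7 genes, were stronger, or 4.52% against 15.1%. All 3 wildtype ranks were stronger than both knockout ranks at 76 of the 177, or 42.9% against 27.3%, and weaker at 20, or 11.3% against 29.8%. The median log2 rank difference, knockout minus wildtype, was 0.49 over member regions and -0.04 over all regions. Of the 50 weaker regions 46 lay inside the gene, and at 45 a knockout library had a higher -log10 p than every wildtype library.

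**Figure D1:**
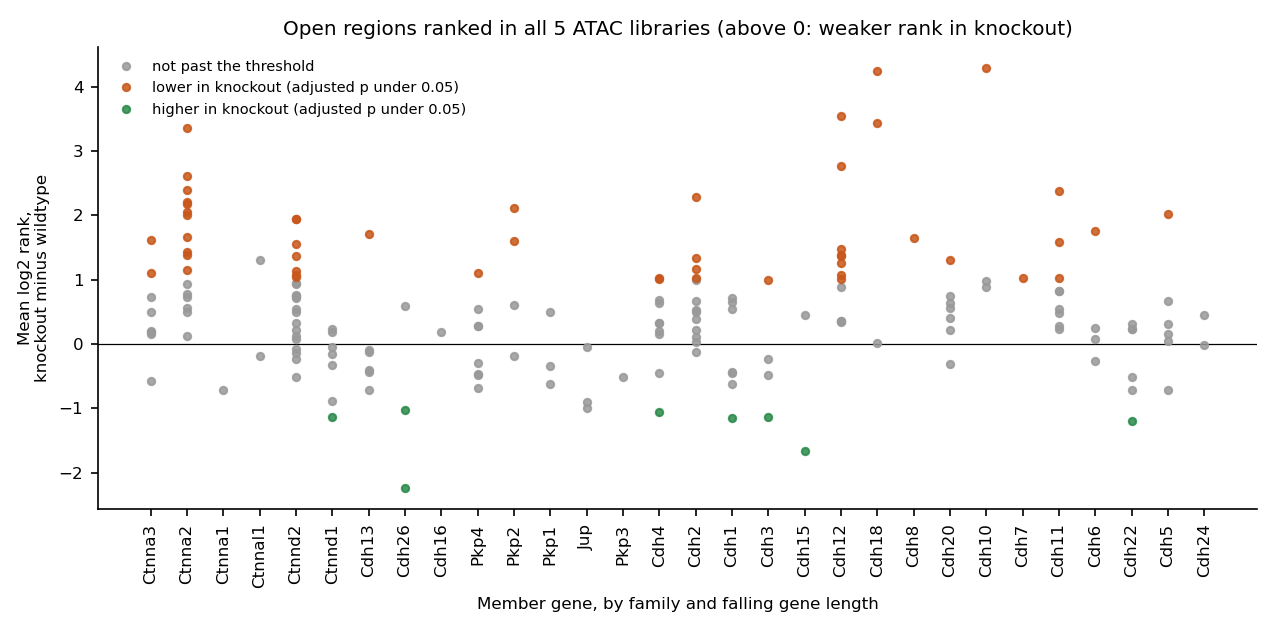
Each point is 1 open region fitted in all 5 ATAC libraries, placed over its member gene (by family, longest first), with the mean log2 rank in knockout minus that in wildtype on the vertical axis. The 50 regions weaker in knockout lie above 0, up to 4.29 at Cdh10, and the 8 stronger ones below 0, down to -2.24 at Cdh26.

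Which regions passed depended on the libraries. Without knockout replicate 1, 25 member regions were weaker (13.2% against 5.16% of all regions) and 2 stronger, and 22 of the 50 regions were still called. Without knockout replicate 2, 37 were weaker (20.0% against 8.18% of all regions) and 3 stronger (1.62% against 8.69%), and 33 of the 50 were still called. Ranks taken as a share of each list's length moved the median of all regions to -0.36 and that of member regions to 0.17. On that scale 33 member regions were weaker and 14 stronger, against 7.91% and 24.9% of all regions, and the weaker share of all calls was 24.1% in place of 47.5%. Ranks by fold enrichment moved the median of all regions to 0.25 and left members at 0.49. Of the 50 weaker regions 8, in 7 genes, were called in the reported fit and in all 11 alternatives, and none of the 8 stronger regions was. These 8 weaker regions lay in Ctnna2 (at 2 places), Cdh2, Cdh5, Cdh10, Cdh18, Ctnnd2 and Pkp2. In at least 10 of the 12 settings, 31 of the 50 weaker and 2 of the 8 stronger regions were called. In all such counts of settings, a region that could not be fitted in a setting counts as not called. The setting limited to the 50000 strongest peaks of all 5 libraries left many of the weaker and most of the stronger regions unfitted. Cdh26 and Cdh15 each had a stronger region that was called in 11 of 12 settings and was unfitted in that one.

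**Figure D2:**
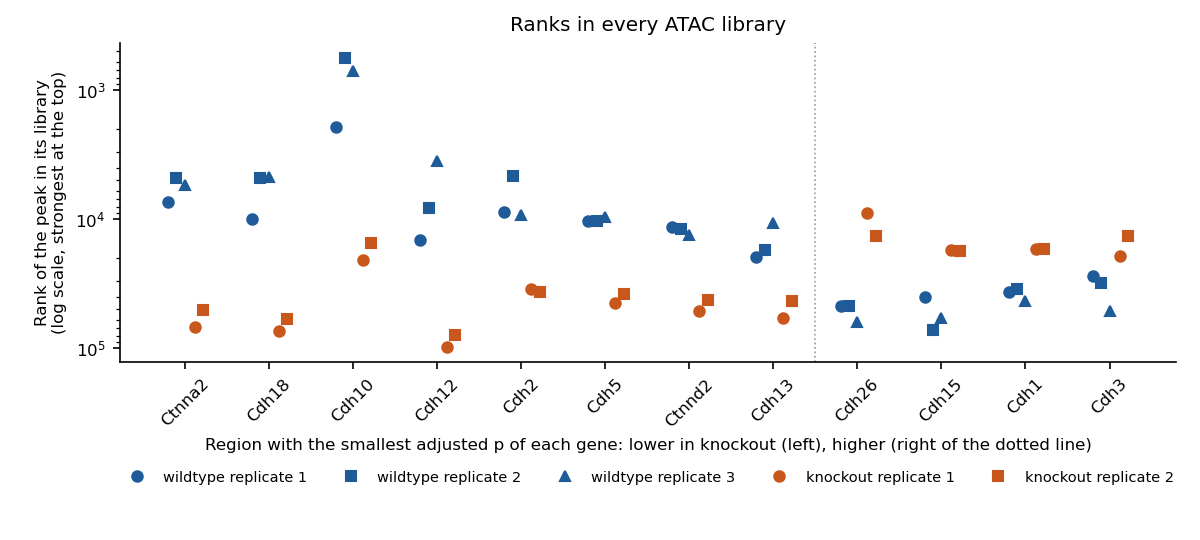
Rank of the peak in each of the 5 ATAC libraries (log axis, strongest at the top) at the region with the smallest adjusted p of each of 8 genes with a weaker region and of 4 with a stronger one. The wildtype points (blue) lie above the knockout points (orange) in the first 8 genes and below them in Cdh26, Cdh15, Cdh1 and Cdh3.

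The share of weaker regions grew with gene length. The median member was 129 kb long and the median coding gene 17.5 kb. Among genes under 50 kb, 9.09% of 22 member regions and 9.59% of the regions of other coding genes were weaker in knockout. Between 50 and 200 kb the counts were 9 of 55 (16.4%) and 2123 of 14183, and between 200 and 500 kb 25.8% and 19.0%. The gap was widest for genes of 500 kb or more, with 31 of 69 member regions (44.9%) against 25.8%. The 6 members of that length, Cdh12, Cdh13, Cdh18, Ctnna2, Ctnna3 and Ctnnd2, held 26 of the 40 wildtype-only regions and no region that was stronger in knockout. Their median difference was 0.89, and that of other genes of this length was 0.42. The difference between members and other genes of a length class was not tested.

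**Figure D3:**
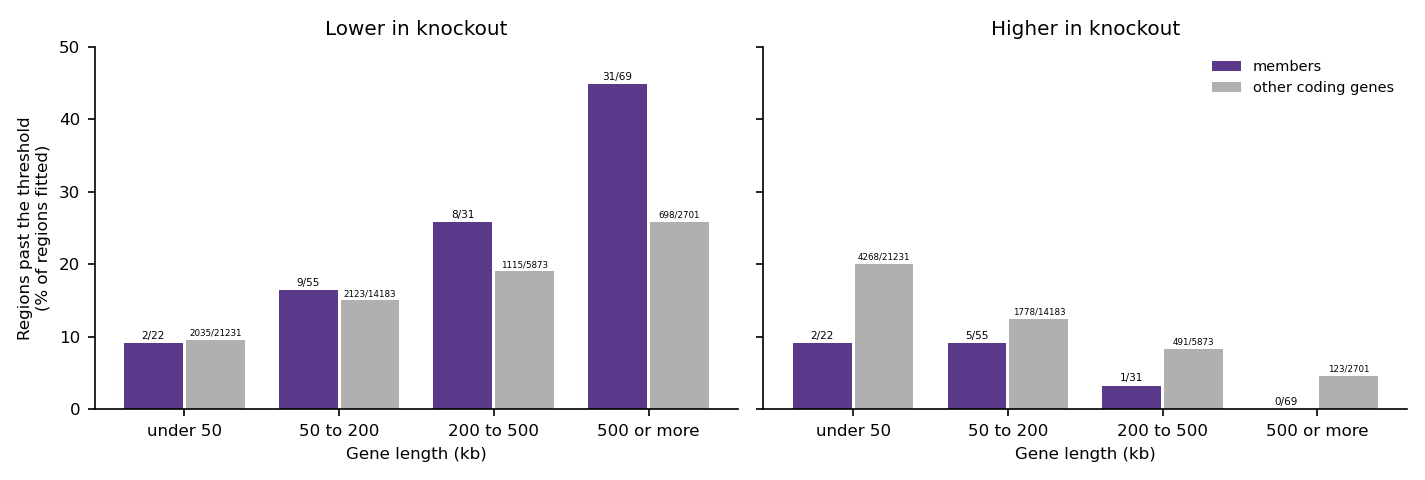
Bars give the percentage of fitted open regions weaker (left) or stronger (right) in knockout, for members (purple) and other coding genes (grey) in 4 classes of gene length, with the counts above each bar. The weaker share grew with gene length in both lists, from 9.09% to 44.9% in members and from 9.59% to 25.8% in other genes.

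Per unit of length, the member gene bodies held fewer open regions in both knockout libraries than in any wildtype library. Together they held 1.58, 1.76 and 1.74 open regions per 100 kb in wildtype against 1.13 and 1.25 in knockout. All coding genes together held 2.95 to 3.05 in wildtype and 3.08 in both knockout libraries. The wildtype and knockout values of the members did not overlap. Other long genes showed the same order. Over the 6 members of 500 kb or more the values were 1.15, 1.27 and 1.37 in wildtype against 0.633 and 0.707 in knockout, and over other coding genes of that length 1.34 to 1.62 against 1.09 and 1.14, also without overlap. Between 50 and 200 kb members held 2.58, 2.76 and 2.70 in wildtype, close to the 2.85, 2.77 and 2.69 of other genes, and 2.41 and 2.58 against 2.99 and 2.94 in knockout. The densest member was Cdh24, with 18.5 regions per 100 kb in every library over a gene of 10.8 kb that held 2 regions. Among members of at least 50 kb, Cdh1 was the densest, at 8.97 to 10.5.

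**Figure D4:**
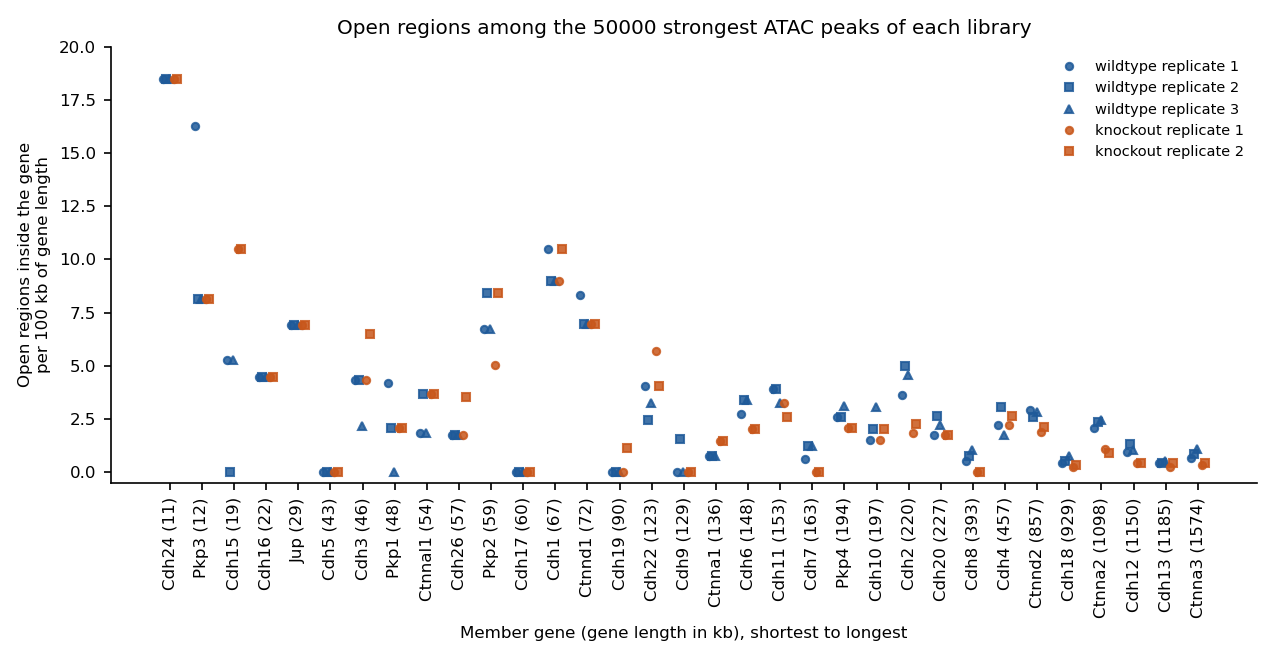
Open regions inside each member gene per 100 kb of gene length, in each of the 3 wildtype (blue) and 2 knockout (orange) ATAC libraries, with genes ordered by length. Long genes on the right, such as Ctnna2, Cdh12 and Ctnnd2, have both knockout points below all wildtype points, while Cdh24, Jup and Cdh16 have the same value in every library.

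Of the type I cadherins, Cdh2 had 4 weaker of 13 fitted regions and no stronger one, and Cdh1 had no weaker and 1 stronger of 7. Over the group 7 of 36 were weaker (19.4% against 13.6% of all regions) and 4 stronger (11.1% against 15.1%). Differences between its genes were not tested. Cdh1, which encodes E-cadherin, the main adhesion receptor of epithelia, had 6 to 7 regions in every library. The region at its gene end, chr8:106603037-106603581, ranked 5339, 5991 and 7542 in wildtype against 3598 and 5924 in knockout. These ranks overlapped, and limma gave a difference of -0.43 ± 0.42 (SE, 3 and 2 libraries) and an adjusted p of 0.461. A region inside Cdh1, chr8:106610862-106611390, ranked 36758, 34490 and 43190 in wildtype against 17028 and 17157 in knockout. It was stronger in knockout by 1.15 log2 ranks (-1.15 ± 0.34, adjusted p 0.0139), one of the 8 such regions, and was called in 9 of 12 settings, the reported fit included.

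Cdh2 encodes N-cadherin, the cadherin of neural and mesenchymal cells. It had 12, 15 and 14 regions in wildtype against 7 and 8 in knockout. Its gene end lies in a wide open region, chr18:16808262-16809799, which ranked 8743, 4653 and 9349 in wildtype against 34493 and 36431 in knockout. The ranks were well separated, with a difference of 2.29 ± 0.39 and an adjusted p of 0.000206. The -log10 p there was 121, 94.6 and 45.6 in wildtype against 177 and 82.6 in knockout, so these ranges overlapped. The fold enrichment was 8.90, 9.73 and 6.81 in wildtype against 6.29 and 5.88 in knockout. A region inside the gene, chr18:16740617-16741181, ranked 22661, 10951 and 16860 against 46964 and 35139 (1.33 ± 0.37, adjusted p 0.00990). Another 2 inside it were weaker by 1.03 and 1.16, and 3 regions of Cdh2 were wildtype-only, 1 of them 16262 bp outside the gene.

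Cdh3 and Cdh4 each had regions called in both directions. At Cdh3, the P-cadherin gene next to Cdh1, the gene end at chr8:106510573-106511093 ranked 10130, 9855 and 11520 in wildtype against 9795 and 8063 in knockout, with a difference of -0.24 and an adjusted p of 0.661. Beyond the far end of Cdh3, chr8:106558867-106559428 was weaker by 1.00 and chr8:106561012-106561576 stronger (-1.14 ± 0.37, adjusted p 0.0227), 2 regions that lie close together. They were called in 5 and 7 of 12 settings. Cdh4, which encodes R-cadherin, held 2 wildtype-only and 3 knockout-only regions along 457 kb, and its gene end was open in all 5 libraries. Its rank differences passed at 2 weaker regions and 1 stronger one. All 3 of its knockout-only regions lay inside the gene, with the best knockout ranks between 40961 and 43697, close to the limit of 50000.

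Cdh15 encodes M-cadherin, known from skeletal muscle precursors. Both its rank call and its knockout-only regions went towards knockout. Its promoter region, chr8:122848038-122848547, ranked 50508 and 67476 in wildtype replicates 1 and 3, had no peak in wildtype replicate 2, and ranked 44290 and 39794 in knockout. The region was knockout-only, although wildtype replicate 1 missed the limit by few ranks. The -log10 p was 18.9 and 6.12 in these wildtype libraries and 126 and 72.5 in knockout. A region 12920 bp outside the gene, chr8:122834948-122835454, ranked 39881, 72604 and 58203 against 17323 and 17612. It was the clearest region of a type I cadherin to be stronger in knockout (-1.66 ± 0.35, adjusted p 0.00141).

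Over the type II cadherins, which sort neurons and other cells into groups, 19 of 54 fitted regions were weaker in knockout (35.2% against 13.6% of all regions). Only 1 was stronger (1.85% against 15.1%). Of the 19, 8 were at Cdh12 and 2 at Cdh18, genes of 500 kb or more. In other coding genes of that length 25.8% were weaker. The median difference over type II regions was 0.60, against -0.04 over all regions. It was 0.54 against 0.25 with ranks by fold enrichment, and 0.27 against -0.36 as a share of list length. Type II genes held 14 wildtype-only and 3 knockout-only regions, and all 3 of the latter were at Cdh22. The contrast was largest at Cdh10. Its gene end, chr15:18818393-18818905, ranked 1917, 559 and 706 in wildtype against 20833 and 15234 in knockout. It thus ranked lower in both knockout libraries than in any wildtype library (4.29 ± 0.52, adjusted p 1.02e-05). In knockout it was still among the 50000 strongest of 208902 and 192810 merged autosomal peaks. The -log10 p was 252, 217 and 154 in wildtype against 288 and 202 in knockout, so these ranges overlapped. The fold enrichment, which compares a peak with its local background, was 21.1, 21.1 and 17.6 in wildtype against 14.7 and 13.7 in knockout.

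Cdh18 and Cdh12 are neural type II cadherins with long gene bodies on chromosome 15. At the Cdh18 start shown above, the open region chr15:23035865-23036665 ranked 3106, 896 and 409 in wildtype against 20559 and 18822 in knockout (4.24 ± 0.59, adjusted p 3.55e-05). A wildtype-only region inside the gene, chr15:22578184-22578703, ranked 10014, 4810 and 4736 against 74118 and 59110 (3.44 ± 0.39, adjusted p 5.66e-06). Here the -log10 p was lower in both knockout libraries, at 50.2 and 37.3, than in any wildtype library, at 110, 93.0 and 70.3. At 5 of the 50 weaker regions, this one included, no knockout -log10 p exceeded every wildtype one. The third of the wildtype-only or weaker regions of Cdh18, chr15:23385771-23386285, ranked 28497, 15025 and 31075 against 76108 and 115497.

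Cdh12 had 11, 15 and 12 regions in wildtype and 5 in each knockout library, or 0.957 to 1.30 and 0.435 per 100 kb. Of its 12 fitted regions 8 were weaker in knockout and none was stronger. The largest difference was at chr15:21200260-21200790, with ranks of 14561, 8168 and 3551 in wildtype against 98379 and 78561 in knockout (3.55 ± 0.44, adjusted p 1.14e-05). The next was at chr15:21459843-21460353, with ranks of 4431, 1167 and 1691 against 17098 and 11597 (2.77 ± 0.50, adjusted p 0.000381). The region over the start shown above, chr15:21110940-21111802, was wildtype-only, with ranks of 32020, 22598 and 21194 against 70535 and 59978 (1.39 ± 0.34, adjusted p 0.00455). The lower-coordinate gene end was wildtype-only as well, at 31050, 21087 and 30194 against 90763 and 54172 (1.37 ± 0.36). All of these groups of ranks were apart. Cdh10, Cdh12 and Cdh18 lie on the same chromosome as Cdh6, Cdh9 and Ctnnd2.

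Cdh7 and Cdh8, like Cdh9 and Cdh17, had no region among the 50000 strongest peaks of either knockout library. Cdh7 had 2, 3 and 3 in wildtype, and Cdh8 had 3, 4 and 5. The Cdh8 promoter region, chr8:99416222-99416882, ranked 31099, 21502 and 38800 in wildtype against 125075 and 82857 in knockout, with a -log10 p of 36.6, 28.8 and 11.3 against 15.8 and 19.0. It was present in the full lists of both knockout libraries, so it was ranked lower and not missing. A region 3820 bp from Cdh8, chr8:99421486-99421996, could be fitted and was weaker by 1.65 ± 0.39 (adjusted p 0.00302). The Cdh7 start region, chr1:109982362-109982885, ranked 37312, 19169 and 24106 against 100296 and 125092. Another, chr1:110215895-110216403, 70623 bp outside Cdh7, ranked 29836, 14972 and 20424 against 150838 and 157000. Inside Cdh7, chr1:109985428-109985935 could be fitted and was weaker by 1.03 ± 0.36 (adjusted p 0.0326), a call made in 4 of 12 settings.

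Cdh6, a cadherin of kidney and neural epithelia, and Cdh11, found on mesenchymal cells, each kept open regions in both genotypes. The Cdh6 region over the promoter shown above, chr15:13173374-13173901, ranked 8117, 6390 and 7519 in wildtype against 31196 and 19442 in knockout (1.75 ± 0.38, adjusted p 0.00159). A region 40316 bp outside Cdh6, chr15:13216723-13217256, was wildtype-only at 28785, 28265 and 12204 against 185398 and 154010. Cdh11 held the peak with the best ranks of any member in wildtype replicates 2 and 3, chr8:102726517-102727091, which ranked 574, 245 and 135 in wildtype against 1173 and 1635 in knockout. Its groups of ranks did not overlap (2.38 ± 0.76, adjusted p 0.0218), and the region stayed among the strongest of every library and carried a Sox4 site. The call was made in 8 of 12 settings and was lost with the replicate number as a block and without wildtype replicate 2, wildtype replicate 3 or knockout replicate 2. The gene end of Cdh11 did not pass (0.82 ± 0.37, adjusted p 0.100).

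Cdh5 encodes VE-cadherin, the adhesion receptor of endothelial cells. None of its 8 regions lay inside the gene. The region chr8:104038634-104039171, 62442 bp outside it, ranked 10404, 10335 and 9650 in wildtype against 44801 and 37715 in knockout (2.02 ± 0.35, adjusted p 0.000257). Its wildtype ranks were nearly equal and far from both knockout ranks. The endothelial and blood marker list had 15 to 16 regions per wildtype and 15 and 17 per knockout library, with 4 of 7 genes open in every library, none open at Hba-a1 and Tie1 open only in knockout libraries. Fewer cells of a type and less opening per cell cannot be told apart in such tissue lists, and the part of endothelial cells in this region was not tested.

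Cdh22 was the type II gene with more regions in both knockout libraries. It had 5, 3 and 4 in wildtype against 8 and 6 in knockout. Its region chr2:165116927-165117429 ranked 3806 and 5845 in knockout and had no peak in any full wildtype list, the only one of the 14 knockout-only member regions without one. The -log10 p there was 667 and 379. Another region inside it, chr2:165159003-165159515, ranked 19501, 50190 and 41728 against 12159 and 18417 (-1.20 ± 0.40, adjusted p 0.0258), called in 8 of 12 settings. Its promoter region did not differ beyond the spread, at 16366, 26512 and 17609 against 20295 and 26657 (0.24, adjusted p 0.643). Cdh20 had 1 weaker region (1.31 ± 0.48, adjusted p 0.0433), called in 6 of 12 settings. Neither fitted region of Cdh24 passed. Cdh9 and Cdh19 had no region that could be fitted. The Cdh9 promoter region ranked 61042, 29242 and 54104 in wildtype against 171813 and 106199 in knockout, so its groups of ranks did not overlap. Cdh9 had 0, 5 and 2 regions in wildtype and 0 in each knockout library. The gene end of Cdh19 was weak in every library, with a best rank of 49287.

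The 4 other cadherins showed no common direction. Their median difference over 10 fitted regions was -0.26, with 1 weaker (10.0%) and 2 stronger (20.0%), against 13.6% and 15.1% of all regions. Cdh26, an epithelial cadherin, carried both stronger regions. At chr2:178584991-178585566, 97625 bp outside the gene, ranks were 46948, 47338 and 62724 in wildtype against 8999 and 13374 in knockout (-2.24 ± 0.35, adjusted p 0.000101), the largest difference in that direction at a member. At chr2:178507325-178507882 the difference was -1.02 ± 0.34. Cdh13, which encodes T-cadherin with a lipid anchor in place of a cytoplasmic tail, had 1 weaker region, chr8:118467764-118468299, with ranks of 19457, 17291 and 10713 against 58393 and 43309 (1.71 ± 0.36, adjusted p 0.00144). Cdh16, a kidney cadherin, had 1 region, at 3202, 4759 and 1825 against 4079 and 2871. Cdh17, a gut cadherin, had 1, 1 and 2 regions in wildtype and 0 in each knockout library. Its 1 wildtype-only region lay 61592 bp away, and none could be fitted.

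The alpha catenins, which connect the cadherin complex to actin, had 13 weaker of 28 fitted regions (46.4% against 13.6% of all regions). None was stronger in the reported fit, where 15.1% of all regions were. Of the 13, 11 were at Ctnna2 and 2 at Ctnna3, genes of 500 kb or more. In other coding genes of that length 25.8% were weaker and 4.55% stronger. The group had a median difference of 1.02 (0.67 with ranks by fold enrichment and 0.70 as a share of list length). Ctnna2 encodes the neural alpha catenin. It spans 1098 kb and had 23, 26 and 29 regions in wildtype against 12 and 11 in knockout. Of its 17 fitted regions 11 were weaker. It held 11 of the 40 wildtype-only regions of all members.

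The region over the Ctnna2 promoter shown above, chr6:77979382-77980001, ranked 5171, 3979 and 2539 in wildtype against 25170 and 15340 in knockout (2.39 ± 0.42, adjusted p 0.000307). The next inward, chr6:77969634-77970165, ranked 7405, 6958 and 7926 against 33570 and 34566 (2.20 ± 0.36, adjusted p 0.000151). Both were called in 12 of 12 settings. Further in, chr6:77862687-77863207 ranked 22532, 11792 and 7080 against 70929 and 79672 (2.61 ± 0.41, adjusted p 9.39e-05). The largest difference was at chr6:77742862-77743402, with ranks of 7342, 4766 and 5390 against 68140 and 50768 (3.36 ± 0.37, adjusted p 4.67e-06). The -log10 p was 137, 93.5 and 65.3 in wildtype against 59.3 and 48.9, so both knockout values were below every wildtype value. It was the only wildtype-only member region that carried a Sox4 site.

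Ctnna2 also held 2 knockout-only regions. One, chr6:77650036-77650540, ranked 86145, 52931 and 149111 in wildtype against 46566 and 47286 in knockout. It lay 772 bp from a wildtype-only region, chr6:77651313-77651829, which ranked 43498, 43721 and 14421 in wildtype, had no peak in knockout replicate 1 and ranked 146178 in replicate 2. The wildtype and knockout windows thus sat side by side at this place. The other, chr6:77123652-77124154, lay 14523 bp from the nearest wildtype-only region.

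**Figure D5:**
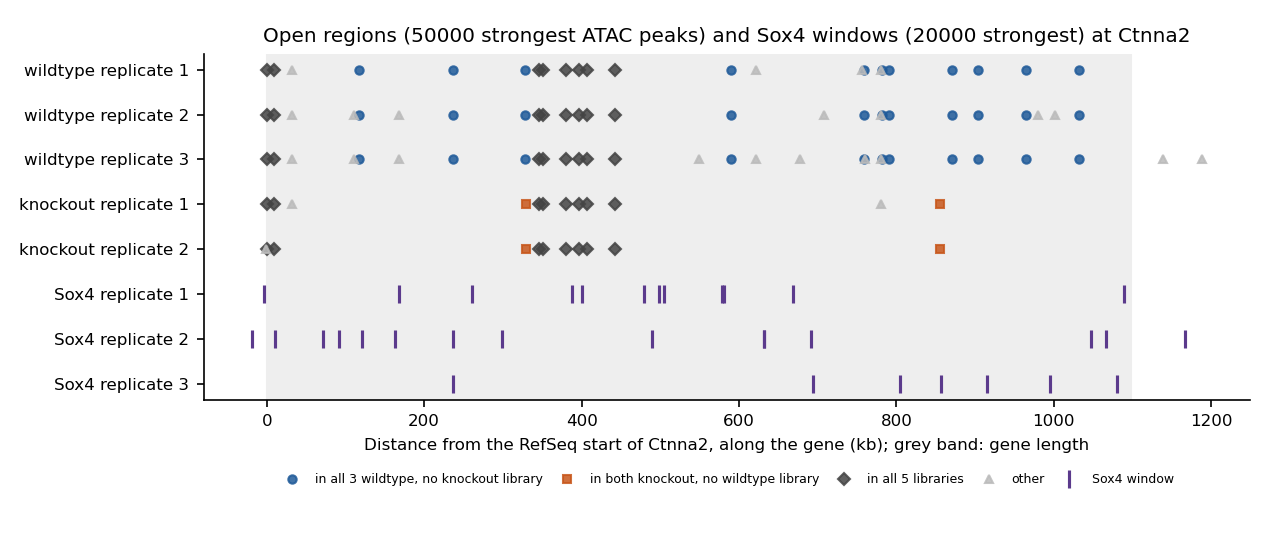
Positions of open regions (top 5 rows) and Sox4 windows (bottom 3 rows) along Ctnna2, in kb from its RefSeq start, with the gene length shaded. The 11 wildtype-only regions (blue) spread along the whole gene, regions open in all 5 libraries (dark) all lie within the first 500 kb, and few Sox4 windows fall at the same place in more than 1 replicate.

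Ctnna3, the alpha catenin known from heart muscle, spans 1574 kb and had 10, 14 and 19 regions in wildtype against 5 and 7 in knockout. Its promoter region, chr10:63429897-63430425, stayed strong in all libraries, at 1914, 2103 and 3719 against 4553 and 2641 (0.49 ± 0.49, adjusted p 0.470). Regions inside it were weaker at chr10:63711427-63711954 (1.61 ± 0.40, adjusted p 0.00447) and chr10:64358365-64358981 (1.11 ± 0.41, adjusted p 0.0446), the second of which was called in 4 of 12 settings. The wildtype-only region chr10:64715711-64716287 ranked 29951, 27880 and 20573 and had no peak in either full knockout list, the only one of the 40 wildtype-only member regions without one. Ctnna1, the alpha catenin of epithelia, ranked 16838, 15882 and 13310 at its gene end in wildtype against 8358 and 10482 in knockout. That gene end was thus stronger in both knockout libraries but did not pass (-0.71 ± 0.37, adjusted p 0.150). Ctnnal1 did not pass either, at 396, 963 and 1317 against 2717 and 1435 (1.31 ± 0.63, adjusted p 0.118), although its groups of ranks did not overlap.

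The delta catenins had 7 weaker regions of 30 fitted (23.3% against 13.6% of all regions) and 1 stronger (3.33% against 15.1%). Ctnnd2 carried all 7 weaker regions and Ctnnd1 the 1 stronger region, and the difference between the genes was not tested. Ctnnd2, the neural member, spans 857 kb and had 27, 24 and 27 regions in wildtype against 17 and 19 in knockout. Of 23 fitted regions 7 were weaker and none stronger. In other coding genes of 500 kb or more 25.8% were weaker and 4.55% stronger. The clearest were chr15:30515348-30515862, at 11412, 11924 and 13263 against 51168 and 42392 (1.94 ± 0.35, adjusted p 0.000344), and chr15:30891725-30892410, at 8467, 10586 and 9448 against 43912 and 30490 (1.95 ± 0.36, adjusted p 0.000454). Its promoter region, at 7814, 8776 and 12737 against 18457 and 18321, was weaker in both knockout libraries but did not pass (0.94 ± 0.38, adjusted p 0.0609). Ctnnd1, which encodes p120 catenin of epithelia, had 5 to 6 regions in wildtype against 5 and 7 in knockout. No region of Ctnnd1 was weaker, and 1 was stronger, chr2:84617754-84618285 (-1.14 ± 0.38, adjusted p 0.0287), called in 7 of 12 settings.

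Plakoglobin and the plakophilins held neither a wildtype-only nor a knockout-only region among 25, where 5.80% and 8.48% of all assigned regions were. Of their 19 fitted regions 3 were weaker in the reported fit, or 15.8% against 13.6% of all regions. None was stronger, where 15.1% of all regions were. The median difference was -0.18, against -0.04 over all regions. It was 0.39 against 0.25 with ranks by fold enrichment and -0.50 against -0.36 as a share of list length. The group median thus lay on either side of that of all regions and had no stable direction. Pkp2, a desmosomal plakophilin, carried 2 of the 3. Its gene end, chr16:16212924-16213454, ranked 3867, 961 and 2598 in wildtype against 10741 and 7934 in knockout (2.12 ± 0.52, adjusted p 0.00408). The second, chr16:16253631-16254149, ranked 5924, 3656 and 6185 against 15127 and 15952 (1.60 ± 0.40, adjusted p 0.00475). Pkp4 carried the remaining one (1.11 ± 0.34, adjusted p 0.0182). The promoter region of Jup, the plakoglobin gene, ranked 1064, 3839 and 4591 against 4932 and 1346 (-0.04 ± 0.61), with overlapping ranks. No region of Pkp1 or Pkp3 passed.

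At the gene ends, 27 members had an open region within 1 kb of an end of the gene interval, and 17 of these were in all 5 libraries. Of the 27, 5 were weaker in knockout (Cdh2, Cdh10, Cdh12, Ctnna2 and Pkp2), none was stronger, 14 did not pass and 8 could not be fitted. The 5 are 26.3% of the 19 fitted (exact binomial 95% interval 9.15% to 51.2%), against 14.1% of the 11142 gene ends fitted over all coding genes, a share within that interval. Over all coding genes 18.4% of gene ends were stronger. The other 45 weaker regions of members lay further from the ends.

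Sox4 sites were found at 6 of the 33 members. A Sox4 site was a place with a window among the 20000 strongest peaks of at least 2 of the 3 CUT&RUN replicates. There were 7 such sites, and the 6 genes are 18.2% of the members (exact binomial 95% interval 6.98% to 35.5%), against 6.50% of coding genes. Members are longer than most genes, and per 100 kb of gene their bodies held 0.748, 1.04 and 0.728 Sox4 windows in the 3 replicates, against 0.890, 0.902 and 0.955 over all coding genes. Per unit of length members held fewer Sox4 windows than coding genes in replicates 1 and 3 and more in replicate 2. Without Sox4 replicate 2 there were 3 sites, and without replicate 3 also 3.

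The 2 sites found in all 3 replicates were at Ctnnd1 and Cdh11. The Ctnnd1 site, chr2:84635489-84636161, ranked 5799, 232 and 6829 in the Sox4 libraries and lay in a region open in all 5 ATAC libraries, at 1195, 1411 and 906 in wildtype against 1985 and 914 in knockout. Its rank did not differ between genotypes beyond the spread (0.23). The Cdh11 site, chr8:102726607-102727367, ranked 2437, 276 and 14543 and overlapped the strong Cdh11 region that was weaker in knockout. A second Cdh11 site, chr8:102707089-102707593, ranked 10831 in replicate 1 and 2500 in replicate 3, with no peak in replicate 2, and its open region did not pass (0.28).

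The Ctnna2 site, chr6:77742725-77743555, ranked 1292 in replicate 2 and 13806 in replicate 3, while the peak there in replicate 1 ranked 150980. In a further deposited list of replicate 1, the peak there ranked 20375. The site covered the Ctnna2 region with the largest loss of rank. The Jup site, chr11:100397678-100398227, covered the promoter shown above and ranked 553 in replicate 2 and 3285 in replicate 3. It had no peak in the list of replicate 1 used here, and one at rank 37362 in the further list of that replicate. Sites at Cdh13, chr8:118541749-118543071 in replicates 1 and 2, and at Ctnna3, chr10:64334156-64334876 in replicates 2 and 3, had no open region in any ATAC library. So 2 of the 7 sites overlapped a region weaker in knockout and none a stronger one, where 11.1% of the 1472 sites near any coding gene overlapped a weaker region and 11.1% a stronger one. With 7 sites the interval on the 2 runs from 3.67% to 71.0%, and 1 of the 2, at Cdh11, was called in 8 of 12 settings. Of the Sox4 windows nearest to a member, 4 of 96, 6 of 134 and 6 of 87 were shared with another replicate. These are 4.17%, 4.48% and 6.90%, against 6.92%, 7.40% and 7.85% of windows near any coding gene. Of the member windows 5.21%, 6.72% and 6.90% lay in regions open in all 3 wildtype libraries, against 10.8%, 11.1% and 13.2% near any coding gene.

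The junction partners outside the member list were called in both directions at similar rates. Of 179 fitted regions of 33 partner genes, 22 were weaker (12.3% against 13.6% of all regions) and 19 stronger (10.6% against 15.1%). Their median difference was -0.01, with 8 wildtype-only and 18 knockout-only regions. Ctnnb1, the beta catenin gene, had no call in either direction over 6 fitted regions. Nectin3, an adhesion protein that pairs with other nectins between unlike cells, had 7 weaker of 12 fitted regions and 1 Sox4 site. Vcl, which encodes the actin linker vinculin, had 2 stronger of 3 and 1 site, while Nectin2 and Fat1 had 1 site each.

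Markers of other cell types were counted in the same way. The neuron and glia marker list had 21 to 24 regions per wildtype and 25 per knockout library, with 6 of 7 matched genes open in every library. Of its 23 fitted regions 7 were weaker in knockout (30.4% against 13.6% of all regions). Another 3 were stronger, where 15.1% of all regions were. The list held 3 wildtype-only and 4 knockout-only regions, and Neurog1 had 0 to 1 regions in wildtype against 3 and 2 in knockout. The mesenchyme list had 7 to 16 regions in wildtype against 10 and 11 in knockout. Of 12 fitted regions 2 were weaker (16.7% against 13.6% of all regions) and none was stronger, against 15.1%. Prrx1 had 0, 4 and 3 in wildtype and Twist1 1, 1 and 4, and neither had any in knockout. Col1a2 had 2, 4 and 4 in wildtype against 6 and 7 in knockout. Tbx18 had 2, 3 and 3 against 2 and 2, and Col3a1 and Prrx2 had 1 in every library. The part of these cells in the member results was not tested.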

How the data were processed

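Peak lists of 5 ATAC-seq and 3 Sox4 CUT&RUN libraries were used. The submitters' processing notes list STAR, MACS2 and deepTools, plus UMI-tools for the Sox4 libraries, with no versions or roles, and mm10 and GRCm38 as builds. The authors deposited each peak's fold enrichment over its own library's background as a ratio, its -log10 p and -log10 q, and its summit offset in bases. The names of the knockout and Sox4 lists state a p threshold of 0.01. The lists hold no read counts, so the depth behind each peak is unknown.

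Overlapping autosomal peaks were merged within a library and ranked by -log10 p. Windows of 250 bases on each side of the summits of the 50000 strongest ATAC peaks (20000 for Sox4) were merged across libraries wherever they shared 1 bp, which gave 76102 open regions. Genes were the 20665 coding genes on chromosomes 1 to 19 in a RefSeq annotation of mm10, and 2 marker genes outside these chromosomes were not matched. Log2 ranks were fitted with limma 3.58.1 in R 4.3.3 (knockout against wildtype, no covariate, moderated with a trend, Benjamini-Hochberg adjustment over all 49094 regions fitted). Regions were counted with Python 3.11.15 and numpy 2.4.6, and exact binomial intervals came from scipy 1.17.1. On simulated data with 49094 regions and these group sizes, 100 regions were shifted by 1 log2 rank and 100 by 2. Of these 6 and 91 were recovered, with 7 false calls. In the data a far larger share was called, 13.6% weaker and 15.1% stronger, which makes the adjusted threshold less strict. The simulated rates therefore do not give the share of shifts near 1 that the reported fit missed.

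The rule for named genes took all 33 members, and not every region it names is given in full. Members, lists and tests were chosen with earlier results of these data known. A further Sox4 replicate 1 list served only as an alternative, and the 2 single-cell tables were not used because their rows carry no gene names.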

Additional observations from a re-analysis of the deposited data

How the results depend on the processing

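In every alternative run, members exceeded the share over all genes for wildtype-only and weaker regions and lay below it for knockout-only and stronger ones. With the 25000 strongest peaks, 23 member regions were wildtype-only and 8 knockout-only. With 100000 peaks, 24 were knockout-only. When absence was judged over every deposited peak of the opposite genotype, 1 was wildtype-only and 1 knockout-only. Leaving out 1 ATAC library at a time gave 44 to 58 wildtype-only and 16 to 25 knockout-only regions (25 without knockout replicate 1), and 25 to 56 weaker and 2 to 8 stronger regions. With peaks among the 50000 strongest of all 5 libraries, 29 regions were weaker and 2 stronger. With any peak in the full lists, 76 were weaker. With ranks as a share of list length, chosen after seeing the data, 33 were weaker and 14 stronger. Ranks by fold enrichment gave 45 weaker, 34 of them among the 50, and turned 1 of the 50 (Ctnna2, chr6:77628722-77629237) towards knockout. For Sox4, 10000 peaks gave 3 sites, 39000 gave 20, windows in all 3 replicates gave 2, the further list of replicate 1 gave 11 and leaving out 1 replicate gave 3 to 5. The causes were not tested, except that stricter limits leave fewer regions to count.

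With the replicate number as a replicate block, 55 regions were weaker (45 of the 50) and 8 stronger (7 of the 8). Deviations of same-numbered libraries correlated at 0.12 and 0.09, and the libraries share only a number. No depth limit could be set, since peak lists keep no read counts.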
